A study of Mus musculus with 22 samples.

Results

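Polycomb and trithorax proteins are the chromatin regulators that keep genes silent or active through marks on histones, and the mRNA of 41 of their subunits was examined in fibroblasts with and without Lsh. The members were chosen by name: every row whose gene symbol equalled a member's was taken, and 40 of the 41 were found among 16271 genes. They fall into 4 groups, with 9 subunits of PRC2, 20 of PRC1 and the associated H2A deubiquitinase, 6 of the H3K4 methyltransferase complexes and 5 histone demethylases. Setd1b is not analysed here.

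Both genotypes were primary mouse embryonic fibroblasts (MEFs), cells grown from the body of C57BL/6 embryos at E13.5 and used at passage 3 to 4, with no treatment in either. The KO libraries, KO1 and KO2, came from Lsh-/- cells, and the WT libraries, WT1 and WT2, came from Lsh+/+ cells. Hells encodes Lsh, a chromatin remodeller related to SNF2 that cells need for normal DNA methylation. The RNA samples are labelled as biological replicates. The labels state neither what same-numbered libraries have in common nor the part of Hells that was deleted, and p-values measure only the spread between these samples.

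PRC2 places methyl groups on lysine 27 of histone H3 through Ezh2 or Ezh1, held in a core with Eed, Suz12 and a histone chaperone. PRC1 ubiquitinates histone H2A through Ring1 or Rnf2, paired with a PCGF subunit, and its CBX subunits bind the mark that PRC2 leaves. The trithorax-related complexes methylate lysine 4 of histone H3 and share the core subunits Wdr5, Rbbp5, Ash2l and Dpy30. In fibroblasts these systems are known for the control of the locus that encodes Ink4a and Arf, whose products halt cell division.

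No subunit of either system passed the test between KO and WT cells. The PRC2 accessory subunit Phf19 was nearest to it, at 0.404 and 0.394 of the WT level within replicate 1 and replicate 2. Like genes in general, subunits differed more between the replicate numbers than between the genotypes: 17 of the 39 tested members passed that test, or 43.6%, against 47.7% of all genes. The chromodomain protein Cbx6 was 4.02-fold and 4.79-fold higher in replicate 2 of KO and WT cells.

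Levels are given in RPKM, which divides a transcript's reads by its length in kilobases and by the library's mapped reads in M (mega), so that genes can be set against each other. The most abundant member was Phc2, a PRC1 subunit that links complexes into chains, with 48.0 and 34.7 RPKM in KO1 and KO2, against 59.3 and 45.2 RPKM in WT1 and WT2. It stood at percentile 94.2 of the 11149 genes tested. Cbx6 followed at percentile 92.3, and the next were Rbbp4, the histone chaperone of PRC2 and other complexes, and Rnf2, the main H2A ubiquitin ligase. The averages of Rbbp4 and Rnf2 over the 4 libraries, 18.8 and 17.6 RPKM, lay closer together than the libraries of either gene. At the low end were Cbx7 and Phf19, at percentiles 3.52 and 7.28. Pcgf1, a PCGF subunit of a variant PRC1, was at 0.0280 and 0.0336 RPKM in KO1 and KO2, against 0.0173 and 0.0648 RPKM in WT1 and WT2. It was the only measured member under the minimum of 0.5 RPKM in 2 libraries and was not tested.

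**Figure D1:**
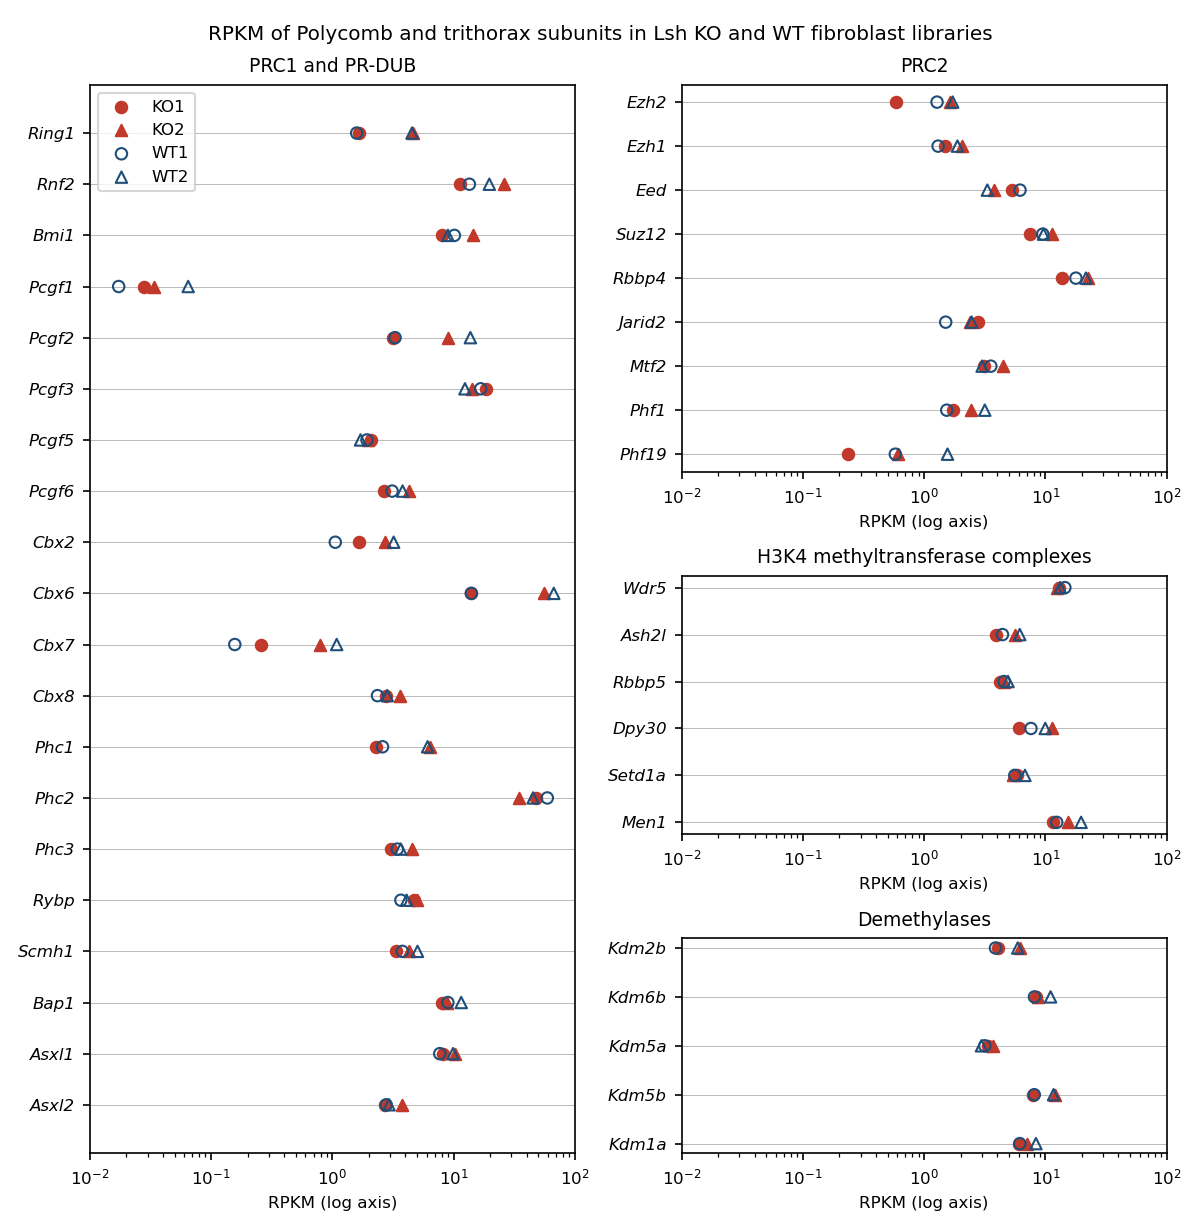
RPKM of each measured subunit in the 4 libraries on a log axis, with KO libraries filled and WT libraries open, circles for replicate 1 and triangles for replicate 2. For Cbx6 and Ring1 the circles and the triangles form separate pairs, whereas KO and WT symbols of the same number lie close together.

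The first comparison asked which subunits differed in level between cells without Lsh and WT cells. On log2(RPKM + 0.5), with genotype as the only term in limma, 0 of the 39 tested members had an adjusted p under 0.05, and the share over all genes tested was 0%. At an unadjusted p under 0.05 the same fit gave 0 members, against 0.368% of all genes. Once the replicate number was added as a term, called the block below, 0 members passed, against 0.673% of all genes. At an unadjusted p under 0.05 that fit gave 1 member, Phf19, against 9.1% of all genes.

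Within the replicate numbers, 12 of the 39 members were lower in KO than in WT cells in both, where the share over all genes was 31.4%. A further 9 were higher in KO in both, where that share was 22.5%, and 18 had opposite signs. The median difference over the members was -0.04 for KO1 minus WT1 and 0.04 for KO2 minus WT2 on the log2 scale, beside -0.07 and 0.02 over all genes tested. Both KO libraries lay above both WT libraries for Pcgf5, Rybp and Kdm5a, and below them for Bap1 and Wdr5. Over all genes 13.4% had no overlap between the genotypes, so the members' 5 of 39 is close to the background. A difference beyond 0.5 on the log2 scale was found in 7.69% of the members within either number, against 11.5% of all genes within replicate 1 and 8.02% within replicate 2.

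**Figure D2:**
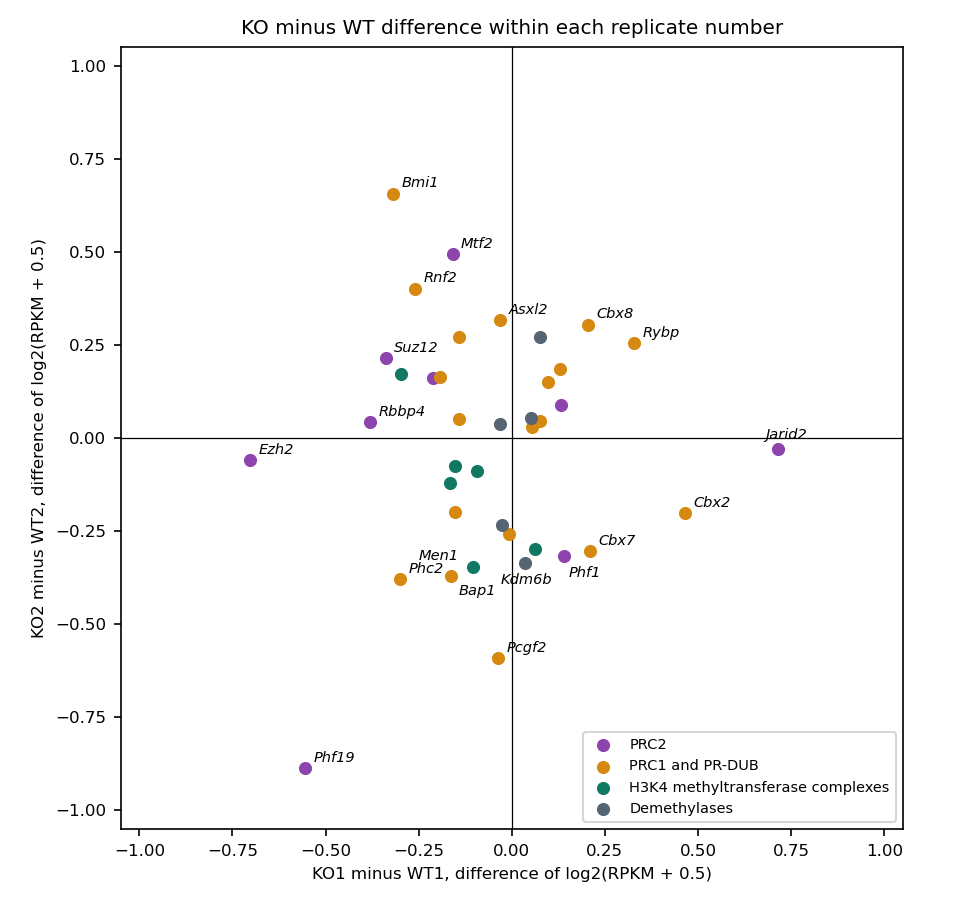
Difference of log2(RPKM + 0.5) between KO and WT within replicate 1 (horizontal) and within replicate 2 (vertical) for the 39 tested members, coloured by complex. Points in the upper left and lower right had opposite signs in the 2 numbers, and Phf19 was the only member lower in KO by more than 0.5 in both.

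Among the PRC2 subunits the largest change over both numbers was in Phf19, though Jarid2 and Ezh2 differed more within replicate 1. Phf19 is an accessory subunit with a Tudor domain that binds methylated lysine 36 of histone H3. Phf19 (chromosome 2, 34749275 to 34769497, minus strand, mm9) was at 0.233 and 0.614 RPKM in KO1 and KO2, against 0.578 and 1.56 RPKM in WT1 and WT2. Each KO library was below the WT library of its number, but KO2 was above WT1, so the genotypes overlapped. The averages were 0.424 ± 0.269 RPKM in KO cells and 1.07 ± 0.693 RPKM in WT cells (SD, n = 2 each). Its log2 change was -0.72 with a standard error of 0.50 and an adjusted p of 1.00 in limma with genotype alone. With the block the standard error was 0.17 and the adjusted p was 0.101. On this scale the pseudocount of 0.5 RPKM understates the change of a gene at this level.

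Ezh2, the catalytic subunit of PRC2 in dividing cells, was at 0.591 and 1.63 RPKM in KO1 and KO2, against 1.28 and 1.72 RPKM in WT1 and WT2. KO1 stood apart as the low library, and KO2 was at 0.948 of WT2 in this summed level. The more abundant transcript row of Ezh2, NM_007971, was at 0.536 and 1.37 RPKM in KO1 and KO2, against 0.942 and 1.19 RPKM in WT1 and WT2. In that row KO2 was thus above WT2, and the log2 change was -0.17. The log2 change of Ezh2 was -0.38 with a standard error of 0.46 (limma adjusted p = 1.00) and, with the block, an adjusted p of 0.651. Without KO1 its sign turned, to 0.10 on the log2 scale. That fit had no term for the number and set KO2 against both WT1 and WT2. Against WT2 alone, KO2 differed by -0.06. Ezh1, the alternative catalytic subunit found in resting cells too, was at 1.48 and 2.03 RPKM in KO1 and KO2, against 1.30 and 1.88 RPKM in WT1 and WT2.

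The ratio of Ezh2 to Ezh1 was 0.401 and 0.802 in KO1 and KO2, against 0.980 and 0.914 in WT1 and WT2. Both KO ratios lay below both WT ratios, and KO1 was the lowest. Taken from the most abundant transcript row of each gene, the ratio was 0.364 and 0.673 in KO1 and KO2, against 0.723 and 0.635 in WT1 and WT2, so that the genotypes overlapped. With 2 libraries against 2, an exact two-sided permutation test cannot give a p below 0.333, so no test of a single ratio is given. Ezh2, Phf19 and the summed level of the 19 proliferation markers measured all rose in the order KO1, WT1, KO2, WT2. That sum was 65.8 and 144.8 RPKM in KO1 and KO2, against 121.8 and 176.2 RPKM in WT1 and WT2. The median difference of the markers on the log2 scale was -0.74 within replicate 1 and -0.22 within replicate 2. Ezh2 differed by -0.70 and -0.06, but Phf19 by -0.56 and -0.89, more within replicate 2. The summed blood and macrophage markers, given below, rose in the same order of libraries. So did Cbx6, Pcgf2, Men1, Ash2l, Rbbp5, Scmh1 and Kdm1a among the members. Both replicate 2 libraries lay above both replicate 1 libraries in 53.3% of all genes tested. The share of all genes with the full order was not counted. None of the proliferation markers was at 0 in any library, and 18 of the 19 were lower in KO within both numbers, against 31.4% of all genes. In limma 0 passed in either fit, and 15 had an unadjusted p under 0.05 with the block, against 9.1% of all genes. The part of cell division in the levels of Ezh2 and Phf19 was not tested.

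The accessory subunit Jarid2, which binds nucleosomes and helps to recruit PRC2, had the largest positive difference of any member within replicate 1. It was at 2.79 and 2.40 RPKM in KO1 and KO2, against 1.51 and 2.46 RPKM in WT1 and WT2, so that WT1 alone was low. Its log2 change was 0.34 with a standard error of 0.35 (limma adjusted p = 1.00). Mtf2, a Polycomb-like subunit that binds CpG-rich DNA, was at 3.12 and 4.43 RPKM in KO1 and KO2, against 3.55 and 3.01 RPKM in WT1 and WT2. Its difference was -0.16 within replicate 1 and 0.49 within replicate 2, which are opposite in sign. The related subunit Phf1 was at 1.74 and 2.44 RPKM in KO1 and KO2, against 1.54 and 3.16 RPKM in WT1 and WT2.

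The other subunits of the PRC2 core were lower in KO within replicate 1 and higher in KO within replicate 2. Eed, which binds the methylated lysine 27 itself, was at 5.26 and 3.77 RPKM in KO1 and KO2, against 6.17 and 3.32 RPKM in WT1 and WT2. Suz12, which holds the core together, was at 7.42 and 11.3 RPKM in KO1 and KO2, against 9.51 and 9.63 RPKM in WT1 and WT2. Rbbp4 was at 13.6 and 22.2 RPKM in KO1 and KO2, against 17.8 and 21.6 RPKM in WT1 and WT2. The sign thus differed between the replicate numbers in all 3. The median difference over the 9 PRC2 subunits was -0.21 within replicate 1 and 0.04 within replicate 2, on the log2 scale.

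Promoter windows were read for the 34 members that have an entry in the RefSeq table (build GRCm38.p6), which covers 250 bases before to 50 bases after each gene start. E2F factors bind promoters of many genes of DNA replication, and 4 forms of their site were searched on both strands: TTTCCCGC, TTTGGCGC, TTTCGCGC and TTTGCCGC. A site was found in 3 of the 49 windows of members, or 6.12%, against 2.26% of 32851 windows of all genes. The 3 genes were Phf19, Ezh2 and Suz12, all of PRC2. All 9 PRC2 members had a window, so every member that could not be searched lies in another group. Their stretches of 150 bases are shown because these are the only members with a match, with the site in capitals, each read 5′ to 3′ along its gene.
Phf19 (chr2:34914077-34914226, minus strand): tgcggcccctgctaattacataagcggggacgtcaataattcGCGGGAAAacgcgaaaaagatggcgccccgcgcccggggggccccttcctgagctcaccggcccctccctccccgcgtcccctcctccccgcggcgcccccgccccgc
Ezh2 (chr6:47595011-47595160, minus strand): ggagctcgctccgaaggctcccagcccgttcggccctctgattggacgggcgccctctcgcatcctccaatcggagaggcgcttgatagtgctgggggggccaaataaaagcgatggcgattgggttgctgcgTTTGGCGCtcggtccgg
Suz12 (chr11:79992856-79993005, plus strand): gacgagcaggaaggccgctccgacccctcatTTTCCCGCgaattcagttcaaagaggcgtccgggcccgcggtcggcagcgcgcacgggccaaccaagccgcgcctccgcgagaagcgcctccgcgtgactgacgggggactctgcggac
In Phf19 the site lies on the other strand, as GCGGGAAA, with its first base at position -208 from the gene start. In Suz12 the first base is at -219, and in Ezh2 at 4, within the transcript. The windows of members were rich in CpG, with a median of 24 CpG and 64.3% GC, against 7 CpG and 52.7% GC over all windows. Each form of the site contains a CpG, so the 6.12% and 2.26% come from windows of unlike base content. Windows alike in CpG were not compared. A match describes letters only, and binding at these sites is not analysed here.

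Among the PRC1 subunits tested 6 were higher in KO within both numbers, or 31.6%, against 22.5% of all genes. A further 5 were lower in both, or 26.3%, against 31.4% of all genes. Opposite signs were found in 8, and no PRC1 subunit passed the test. Phc2 was lower in KO within both numbers, at 0.810 of WT1 in KO1 and 0.767 of WT2 in KO2. KO1 was above WT2, so its genotypes overlapped. The log2 change of Phc2 was -0.34 with a standard error of 0.29, and limma's adjusted p was 1.00 without the block and 0.597 with it. Its relatives gave no such pattern: Phc1 was at 2.30 and 6.35 RPKM in KO1 and KO2, against 2.59 and 6.10 RPKM in WT1 and WT2. For Phc3 the difference was -0.14 within replicate 1 and 0.27 within replicate 2.

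Rybp, a subunit of variant PRC1 that takes the place of a CBX protein, was at 4.75 and 4.99 RPKM in KO1 and KO2, against 3.68 and 4.10 RPKM in WT1 and WT2. Both KO libraries were above both WT libraries, the averages being 4.87 ± 0.173 and 3.89 ± 0.299 RPKM in KO and WT cells (SD, n = 2 each). Its log2 change was 0.29 with a standard error of 0.25, and limma's adjusted p was 1.00 without the block and 0.716 with it. Bap1, the catalytic subunit of the deubiquitinase that removes the PRC1 mark, had both KO libraries below both WT libraries, at 7.95 and 8.82 RPKM in KO1 and KO2, against 8.97 and 11.6 RPKM in WT1 and WT2. The change of Bap1 was -0.27 with a standard error of 0.26, and limma's adjusted p was 1.00 without the block and 0.748 with it. The partners of Bap1, Asxl1 and Asxl2, had opposite or small differences, between -0.03 and 0.32 on the log2 scale.

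The CBX subunits, which recognise methylated lysine 27, had no steady difference by genotype. Cbx2 was at 1.65 and 2.72 RPKM in KO1 and KO2, against 1.06 and 3.20 RPKM in WT1 and WT2. Cbx6 was at 13.9 and 55.9 RPKM in KO1 and KO2, against 14.0 and 67.0 RPKM in WT1 and WT2. For both genes the replicate 2 libraries were the high ones. Cbx7, low in all libraries, was at 0.260 and 0.785 RPKM in KO1 and KO2, against 0.157 and 1.09 RPKM in WT1 and WT2. Cbx8 was at 2.79 and 3.62 RPKM in KO1 and KO2, against 2.36 and 2.84 RPKM in WT1 and WT2. It was the only CBX member higher in KO within both numbers, with a log2 change of 0.25, a standard error of 0.31 and an adjusted p of 1.00 in limma.

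The RING ligases and PCGF subunits form the catalytic heart of PRC1. Ring1 was at 1.67 and 4.65 RPKM in KO1 and KO2, against 1.59 and 4.54 RPKM in WT1 and WT2. Rnf2 was at 11.2 and 26.2 RPKM in KO1 and KO2, against 13.499 and 19.7 RPKM in WT1 and WT2. Ring1 was nearly equal between genotypes within each number, while Rnf2 had opposite signs. Bmi1, a PCGF subunit of canonical PRC1 first known as a repressor of the Ink4a locus, was at 8.04 and 14.4 RPKM in KO1 and KO2, against 10.1 and 8.98 RPKM in WT1 and WT2. Pcgf2, the close relative of Bmi1, was at 3.19 and 8.96 RPKM in KO1 and KO2, against 3.29 and 13.8 RPKM in WT1 and WT2. Its log2 change between genotypes was -0.31 with a standard error of 0.83 (limma adjusted p = 1.00), and it turned to 0.36 without KO1 and to 0.64 without WT2. Those fits had no term for the number, so they set libraries of unlike numbers against each other. Within the numbers Pcgf2 was lower in KO in both, by -0.04 and -0.59. The remaining members of PRC1, Pcgf3, Pcgf5, Pcgf6 and Scmh1, differed by -0.20 to 0.19 on the log2 scale within the numbers.

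Of the 6 H3K4 methyltransferase subunits, 4 were lower in KO within both numbers, where the share over all genes was 31.4%. None was higher in both, where that share was 22.5%, and none passed the test. These 4 were Wdr5, Ash2l, Rbbp5 and Men1, the first 3 of which are core subunits and the last a partner of the MLL enzymes. Wdr5 had both KO libraries below both WT libraries, at 13.0 and 12.5 RPKM in KO1 and KO2, against 14.5 and 13.2 RPKM in WT1 and WT2. Its differences were small, -0.15 and -0.08 on the log2 scale. Men1 was at 11.5 and 15.4 RPKM in KO1 and KO2, against 12.4 and 19.7 RPKM in WT1 and WT2. The catalytic subunit Setd1a was at 5.85 and 5.42 RPKM in KO1 and KO2, against 5.59 and 6.78 RPKM in WT1 and WT2. The medians over the group were -0.13 within replicate 1 and -0.11 within replicate 2.

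The median absolute difference of the demethylases between genotypes was 0.04 within replicate 1 and 0.23 within replicate 2, on the log2 scale. Kdm2b, which brings a variant PRC1 to CpG islands, was at 4.03 and 6.15 RPKM in KO1 and KO2, against 3.87 and 5.91 RPKM in WT1 and WT2. Kdm5a, an H3K4 demethylase, had both KO libraries above both WT libraries, at 3.36 and 3.69 RPKM in KO1 and KO2, against 3.16 and 2.97 RPKM in WT1 and WT2. Its relative Kdm5b was at 7.91 and 12.0 RPKM in KO1 and KO2, against 8.09 and 11.7 RPKM in WT1 and WT2. The H3K27 demethylase Kdm6b and the H3K4 demethylase Kdm1a differed by -0.34 to 0.04 on the log2 scale within the numbers.

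The 40 measured members have 62 transcript rows, and 12 members have more than 1. When the 48 tested rows of members were fitted singly with the block, 0 had an adjusted p under 0.05 in limma, and over the 13280 rows tested the share was also 0%. At an unadjusted p under 0.05 there were 4 rows of members with the block, against 7.58% of all rows, and 1 without it, against 0.392% of all rows. The lowest unadjusted p was that of an Ash2l row, NM_001080793, at 0.733 and 0.746 RPKM in KO1 and KO2, against 1.53 and 1.99 RPKM in WT1 and WT2. Both KO libraries were below both WT libraries, with a log2 change of -0.86 and a limma adjusted p of 0.312 with the block. This row made up 18.8% and 13.3% of the summed level of Ash2l in KO1 and KO2, against 34.5% and 32.4% in WT1 and WT2. The other Ash2l row, NM_011791, was higher in KO, at 3.16 and 4.86 RPKM in KO1 and KO2, against 2.90 and 4.15 RPKM in WT1 and WT2.

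Dpy30, the smallest core subunit, had a similar contrast between rows. Its row NM_001146223 took 49.5% and 55.1% of the gene's level in KO1 and KO2, against 25.4% and 36.8% in WT1 and WT2. Its row NM_001146224 took 50.2% and 40.7% in KO1 and KO2, against 71.3% and 54.5% in WT1 and WT2. These 2 rows had limma adjusted p values of 0.451 and 0.655 with the block. The Ezh2 row NM_001146689 held 9.28% and 16.03% in KO1 and KO2, against 26.2% and 30.5% in WT1 and WT2, but was under the minimum for testing. For the most abundant row of Suz12, Men1, Phc2, Phc3, Pcgf2 and Kdm2b the shares overlapped between the genotypes. For that of Jarid2 and Phc1 they did not, and Scmh1 had nearly all of its level in a single row. The share of all genes whose rows separate by genotype was not counted. Rows of a gene share most of their exons, so these shares depend on how reads were divided between overlapping transcripts, which is not given in the sources used here. Partek stands in the submitters' processing notes and Cufflinks in the deposited readme as the source of the values.

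**Figure D3:**
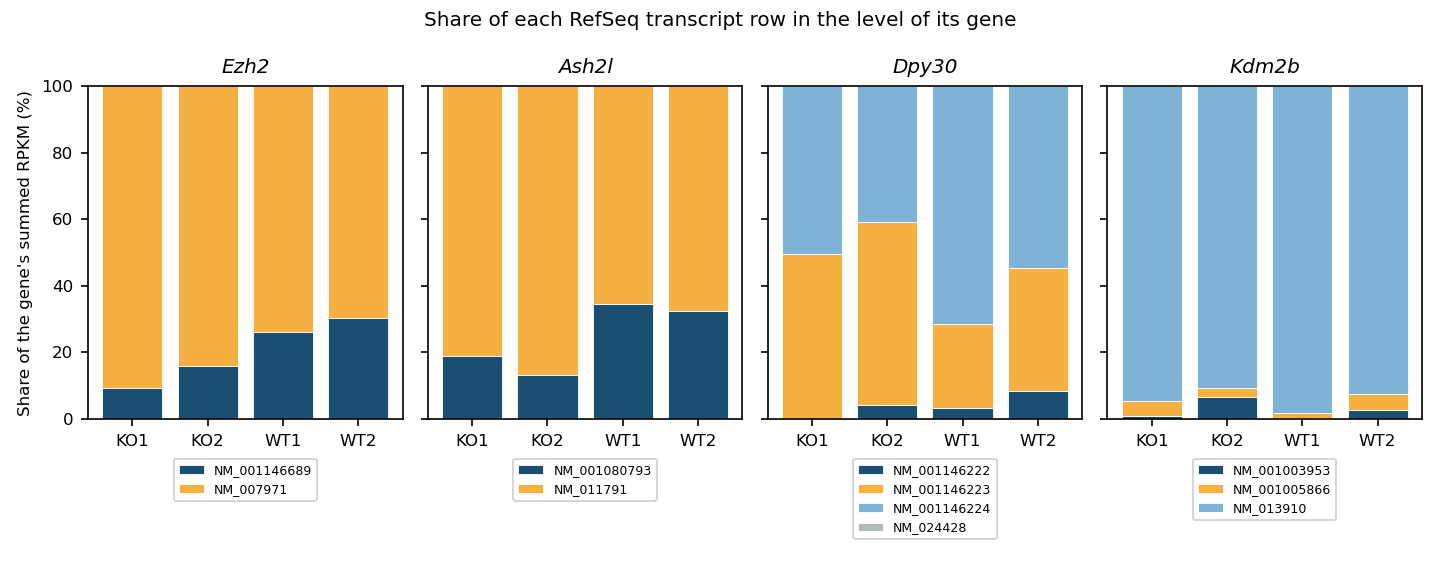
Stacked bars give each transcript row's share of its gene's summed RPKM, in percent, for Ezh2, Ash2l, Dpy30 and Kdm2b in the 4 libraries. In Ash2l the dark segment is 18.8% and 13.3% in KO1 and KO2 and 34.5% and 32.4% in WT1 and WT2; in Kdm2b NM_013910 holds at least 90.7% of the level in every library.

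The second comparison described how far members varied between replicate 2 and replicate 1 of the same genotype, with genotype as a second term in limma. Of the 39 tested members 17 had an adjusted p under 0.05, a share near the background given above. Of these, 16 were higher in replicate 2, where the share over all genes was 35.8%, and Eed alone was lower. By group, 4 PRC2 subunits, 7 PRC1 subunits, 3 H3K4 methyltransferase subunits and 2 demethylases were higher in replicate 2. The median log2 change was 0.33 over the members and 0.25 over all genes tested. The median absolute difference of a member was 0.45 between KO2 and KO1 and 0.39 between WT2 and WT1, beside 0.15 between KO1 and WT1 and 0.21 between KO2 and WT2.

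Cbx6 gave the largest change of any member, 2.09 with a standard error of 0.17 and a limma adjusted p of 5.4e-06. Its level was 4.02-fold higher in KO2 than in KO1 and 4.79-fold higher in WT2 than in WT1. Pcgf2 followed with a change of 1.63 (limma adjusted p = 6.2e-05), being 2.81-fold higher in KO2 than KO1 and 4.18-fold higher in WT2 than WT1. Both genotypes thus showed the difference, and for each gene the 2 libraries of replicate 2 lay above the 2 of replicate 1. Ring1 and Phc1 rose by 1.26 and 1.19 on the log2 scale, with limma adjusted p values of 0.000243 and 0.000303. Cbx7, the chromosome 15 neighbour of Cbx6, rose by 1.01 (limma adjusted p = 0.000857). Of the 19 PRC1 subunits tested, 7 rose, or 36.8%, which is near the 35.8% of all genes. Pcgf3 and Phc2 were at 0.772 and 0.722 of KO1 in KO2 and at 0.741 and 0.763 of WT1 in WT2.

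Cbx2 and Rnf2 rose by 0.92 and 0.86 on the log2 scale, with limma adjusted p values of 0.00445 and 0.00416. Among the PRC2 subunits Phf19 rose by 0.77 (adjusted p = 0.00363), Ezh2 by 0.64 (adjusted p = 0.0222), Phf1 by 0.62 (adjusted p = 0.0223) and Rbbp4 by 0.48 (adjusted p = 0.0415), all in limma. Phf19 and the summed level of Ezh2, which were lower in KO within both numbers, were thus higher in replicate 2 of both genotypes. In the more abundant Ezh2 row the difference by genotype had opposite signs in the numbers. Eed was the exception, at 3.77 and 3.32 RPKM in KO2 and WT2, against 5.26 and 6.17 RPKM in KO1 and WT1. Its log2 change was -0.62 (limma adjusted p = 0.0155). The smaller calls were Dpy30, Kdm2b, Kdm5b, Men1 and Ash2l, with changes of 0.45 to 0.61 and limma adjusted p values of 0.0179 to 0.0459. Dpy30 was at 11.3 and 9.97 RPKM in KO2 and WT2, against 6.08 and 7.60 RPKM in KO1 and WT1. Ash2l was at 5.61 and 6.14 RPKM in KO2 and WT2, against 3.89 and 4.43 RPKM in KO1 and WT1.

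The scaling of the libraries bears on these calls, because the median of all genes was 0.25 higher in replicate 2 as deposited, -0.04 after median-ratio scaling and 0.00 after quantile normalization. With median-ratio scaling 12 members passed in limma, against 45.6% of all genes. With quantile normalization 9 members passed, against 41.5% of all genes. Ring1, Rnf2, Pcgf2, Cbx6, Cbx7 and Phc1 were higher and Eed lower in replicate 2 under all 3 scalings. These 7 members are 17.9% of those tested, and 28.8% of all genes passed under all 3. None of the 17 members that passed as deposited changed sign under either other scaling, but Dpy30, Kdm2b, Kdm5b, Men1, Ash2l, Rbbp4, Phf1 and Ezh2 passed as deposited alone. Pcgf3, Phc2 and Wdr5 passed as lower in replicate 2 with median-ratio scaling, and Pcgf3 and Pcgf5 with quantile normalization.

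**Figure D4:**
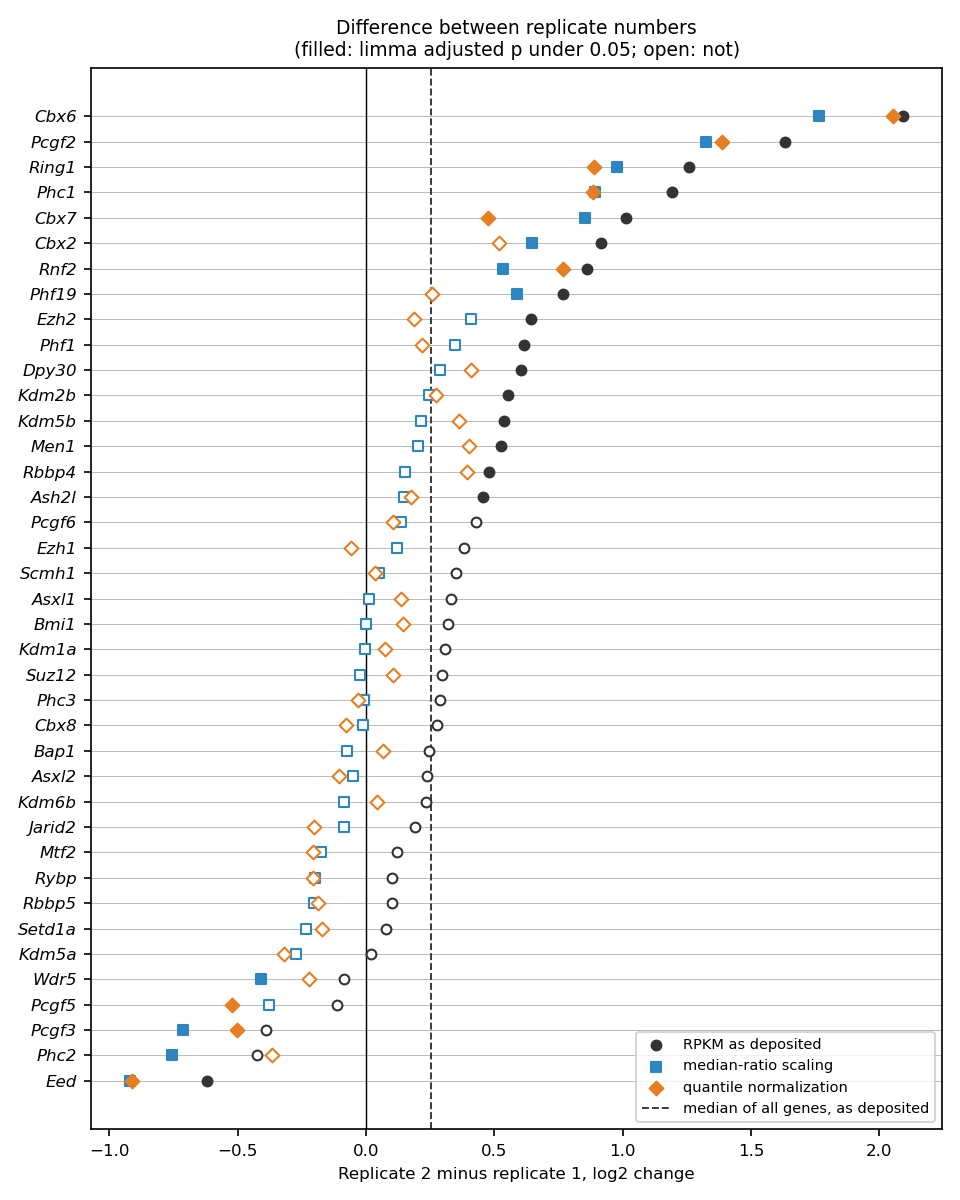
Log2 change of replicate 2 minus replicate 1 for the 39 tested members under 3 scalings, with filled symbols for a limma adjusted p under 0.05 and a dashed line at the median of all genes as deposited, 0.25. Cbx6, Pcgf2, Ring1, Phc1, Cbx7 and Rnf2 stay to the right and Eed to the left under each scaling.

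Ratios between alternative subunits do not change when a library is scaled by a single factor, though quantile normalization can change them. Bmi1 to Pcgf2 was 2.52 and 1.61 in KO1 and KO2, against 3.08 and 0.653 in WT1 and WT2, so Pcgf2 exceeded Bmi1 in WT2 alone. Rnf2 to Ring1 was 6.70 and 5.64 in KO1 and KO2, against 8.50 and 4.34 in WT1 and WT2. Rnf2 was the more abundant ligase in every library. Cbx7 to Cbx8 was 0.0931 and 0.217 in KO1 and KO2, against 0.0666 and 0.383 in WT1 and WT2. Kdm5a to Kdm5b was 0.425 and 0.308 in KO1 and KO2, against 0.391 and 0.255 in WT1 and WT2, and it was the ratio with the narrowest range among those compared. Of the ratios given so far, every one but Ezh2 to Ezh1 separated the replicate 2 libraries from those of replicate 1. A further pair of ratios was chosen after their values were seen, so their separation by number gives no further support. Cbx6 to Cbx8 was 15.4 and 23.6 in KO2 and WT2, against 4.99 and 5.94 in KO1 and WT1. Phc2 to Phc1 was 5.47 and 7.41 in KO2 and WT2, against 20.8 and 22.8 in KO1 and WT1.

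**Figure D5:**
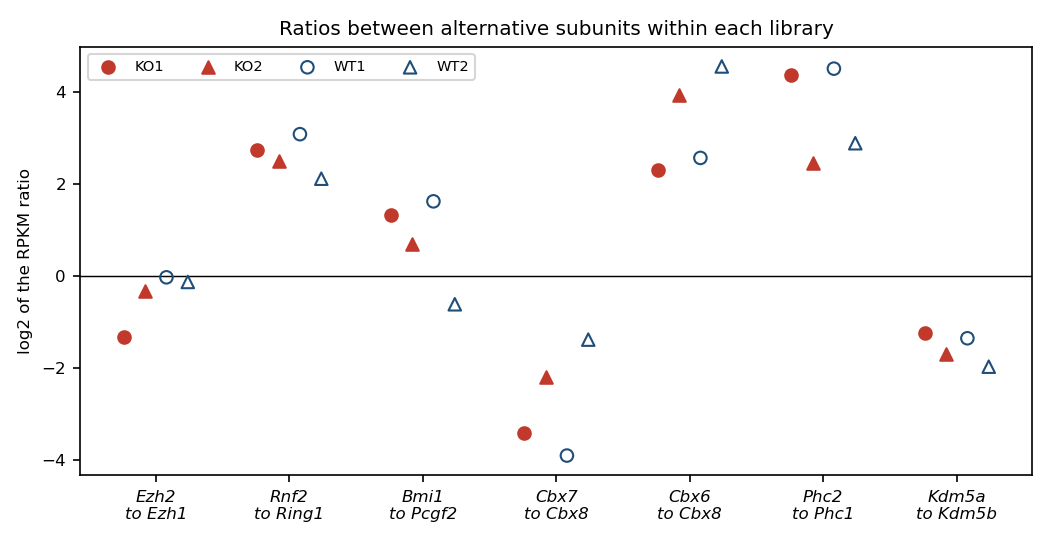
Log2 of the RPKM ratio between alternative subunits in each library, with KO libraries filled and WT libraries open, circles for replicate 1 and triangles for replicate 2; 0 marks equal levels. Every ratio but Ezh2 to Ezh1 separates by replicate number, and Ezh2 to Ezh1 is lowest in KO1. Cbx6 to Cbx8 and Phc2 to Phc1 were chosen after their values were seen.

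Other Polycomb and trithorax genes, listed for their place in the same complexes, gave a like picture. Of the 46 listed, 37 had rows and 36 were tested, and 0 passed the limma test between KO and WT cells in either fit (0 had an unadjusted p under 0.05 with the block). Between replicate numbers 13 of the 36 were higher in replicate 2, near the 35.8% of all genes, and 2 were lower. The largest change was that of Auts2, a subunit of a variant PRC1 that activates genes, with 9.54 and 9.91 RPKM in KO2 and WT2, against 1.44 and 1.51 RPKM in KO1 and WT1. Aebp2, an accessory subunit of PRC2, was lower in replicate 2 with a log2 change of -0.74 (limma adjusted p = 0.00531).

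Cdkn2a, which encodes Ink4a and Arf, was at 107.3 and 33.9 RPKM in KO1 and KO2, against 69.1 and 28.2 RPKM in WT1 and WT2. Its difference was 0.63 within replicate 1 and 0.26 within replicate 2 (limma adjusted p = 0.423 with the block), and it was lower in replicate 2 by a log2 change of -1.46. The neighbouring Cdkn2b was at 47.6 and 63.1 RPKM in KO1 and KO2, against 52.1 and 50.5 RPKM in WT1 and WT2.

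Hells itself was at 0.430 and 0.550 RPKM in KO1 and KO2, against 0.865 and 1.06 RPKM in WT1 and WT2, so both KO libraries were below both WT libraries. Its limma adjusted p was 0.200 with the block, and reads outside the deleted part would not check the label. The 10 fibroblast markers were present in every library, with summed levels of 2951 to 3099 RPKM in KO and 2882 to 3025 RPKM in WT cells. Single fibroblast markers moved with the replicate number: 6 were higher and 3 lower in replicate 2 in limma, among them Dcn, at 128.6 and 121.2 RPKM in KO2 and WT2, against 13.9 and 3.88 RPKM in KO1 and WT1. Blood and macrophage markers summed to 8.37 and 84.6 RPKM in KO1 and KO2, against 60.3 and 175.4 RPKM in WT1 and WT2, and the 10 tested of 12 were lower in KO within both numbers. With the block 4 of these 10 passed as lower in limma, or 40%, and so did 2 of the 4 epithelial markers tested, against 0.673% of all genes. Epithelial markers summed to 7.93 and 5.75 RPKM in KO and 18.6 and 18.1 RPKM in WT cells, with Epcam and Cdh1 at 0.151 RPKM or less in every library. Those that passed were Krt19, at 3.56 and 2.70 RPKM in KO1 and KO2, against 13.4 and 9.78 RPKM in WT1 and WT2, and Krt7 (limma adjusted p = 0.00188 and 0.0228 with the block). The part of these cell types in the members' differences was not tested, and fewer cells of a type and less RNA per cell cannot be told apart in bulk RNA. Estimated depth was 122.5 to 136.1 M mapped reads in KO and 132.2 to 176.6 M in WT libraries. Gapdh was listed at 0.298 and 0.179 RPKM in KO1 and KO2, against 0.160 and 0 in WT1 and WT2, so a low value cannot be read as silence.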

How the data were processed

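RNA of 4 libraries, 2 of each genotype, was analysed. The other 18 of the 22 samples in the labels are not analysed here. Per the labels' protocols, poly-A RNA was selected after rRNA removal. The authors deposited RPKM per RefSeq transcript. The submitters' processing notes name mm9 and Partek, and the deposited readme names Cufflinks. Which aligner was used, and how reads with several matches were handled, is not given in the sources used here. Libraries of replicate 1 list 26886 rows and those of replicate 2 list 21136, all shared, so the listing differed by number, and the number and any batch that goes with it cannot be told apart. The 5750 rows of replicate 1 alone hold no member.

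Rows were summed per gene symbol, and 11149 genes at 0.5 RPKM or more in 2 libraries were tested on log2(RPKM + 0.5) with limma 3.58.1 (R 4.3.3; trend and robust variance), two-sided, with Benjamini-Hochberg adjustment over all genes and a threshold of 0.05. The scripts were tested on simulated data. Depth was read from whole-read steps of single-exon loci (within 0.02 of a read).

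The members and all gene lists were chosen with earlier results of these data known. Values in every library were given for members past the threshold in either comparison, for those beyond 0.3 in the same direction in both numbers, for ratio pairs and for CBX and PRC2 accessory subunits, with a few more for their role. Pooled changes between genotypes are given from 0.25 on the log2 scale. Lists are shown by counts and sums, with at most 5 genes each. Pseudocounts, filters, scalings, transcript choice, the replicate block and leaving out each library were tried as alternatives.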

Additional observations from a re-analysis of the deposited data

How the results depend on the processing

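Between KO and WT cells 0 members passed in all 24 settings. With the replicate block, in which the number is a second term, 75 of all genes passed, against 0 without it. Blocked counts of all genes were 37 and 59 with pseudocounts of 0.1 and 1, 70 with a filter of 1 RPKM, 3 with the highest-mean transcript per gene, 148 with median-ratio scaling, 187 with quantile normalization and 77 without trend and robust variance. They were 0 with no filter and 0 for transcript rows tested singly, a choice made after seeing the data. The replicate numbers pair 2 libraries a genotype, the deviations of same-numbered libraries from their genotype means correlated at 0.875 across genes, and each library correlated best with the other of its number (0.980 and 0.983, against 0.897 between KO libraries and 0.893 between WT libraries). As a hint from the data, this does not show that the design paired them. For Phf19 the blocked log2 change was -1.12 to -0.51 and its adjusted p 0.0552 to 0.499 over the alternatives. Leaving out a library moved Phf19 between -1.19 and -0.25, Ezh2 between -0.86 and 0.10, Pcgf2 between -1.27 and 0.64, Jarid2 between 0.06 and 0.62, Phc2 between -0.57 and -0.11, Bap1 between -0.44 and -0.09, Cbx8 between 0.09 and 0.42 and Rybp between 0.22 and 0.36. These fits had no term for the number, so the ranges also hold the difference between the numbers.

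Between replicate numbers 17 members passed, against 8 with no filter on low values, 9 with quantile normalization and, with the number as the only term, 11 without KO1, 7 without KO2, 12 without WT1 and 6 without WT2. Over all genes the count was 5323, against 4049 without KO1, 2705 without KO2, 4509 without WT1 and 2088 without WT2, with the lone library assumed to vary like the others. The cause of these shifts was not tested. Of 413 alternative values of 53 single results, 340 kept their direction and side of the threshold or stayed within the spread, 68 lost the threshold, 3 changed sign and 2 moved, namely the Ezh2 to Ezh1 ratio of WT1 and WT2 with the highest-mean transcript, to -0.47 and -0.65 on the log2 scale.

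With 2 libraries a genotype and 1 or 2 residual degrees of freedom, differences of the size seen in most members were not detectable. Members under 1 RPKM, Phf19 and Cbx7 among them, are shrunk by the pseudocount.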
